A study of Mus musculus with 52 samples.

Results

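Tle3, Ddit4, Aff1 and Akap12 are 4 of the 24198 mouse gene intervals analysed here, named because they stand at or near the top of that table for the number of enhancers that lie closest to their transcription start site (TSS). Their members in the enhancer tables are all regions inside the gene or within 100 kb of either end, which were 15 of 8794 enhancers of mouse embryonic stem cells (mESCs) and 47 of 16576 enhancers of epiblast-like cells (EpiLCs). The choice rests on counts of regions by nearest TSS. Akap12 had 4 mESC enhancers by nearest TSS within 50 kb, the highest count in the table, which it shared with Prdm1, a repressor needed for germ cell formation, and the next genes had 3. Aff1, Ddit4 and Tle3 had 8 EpiLC enhancers each, below Pim1, a serine/threonine kinase gene, with 9, level with others such as the Polycomb cofactor gene Jarid2, and above the next genes with 7. By the same rule Tle3, Ddit4 and Aff1 had 2, 1 and 1 mESC enhancers, and Akap12 had 4 EpiLC enhancers. These counts, and those in the windows, describe genes chosen for them and carry no test.

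The series comprised 52 libraries in 34 groups, from chromatin immunoprecipitation and from input. Of these, 43 were from mESCs kept without feeders in LIF with GSK3 and MEK1 inhibitors and 9 from EpiLCs taken after 48 hours of differentiation. All were on a C57BL6/129Sv background. Control cells (ABE) stood beside independent clones with arginine in place of lysine 27 of canonical H3 (cK27R) or of all H3 (pK27R), SUZ12KO cells, and, for H3.3, a knockout (H3-3KO) with wild-type (pK27WT) or K27R add-back. Used here were the enhancer and gene coordinates that went with these libraries, in 3 tables with 0 columns of signal. Signal per library was not analysed here, depth is unknown, and the genotypes were not compared. EpiLC enhancers were peaks shared by p300 with the marks H3K4me1 and H3K27ac, and the mESC set came from another laboratory, so that a difference between the sets in number, width or position cannot be told apart from a difference in how they were defined. A place near a gene does not show that an enhancer acts on it.

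Enhancers are stretches of DNA where transcription factors and co-activators gather and from which they act on promoters that may lie far away. Acetylation of H3 lysine 27, deposited by p300 and CBP, marks the active ones, and large dense clusters are often called super-enhancers. Tle3 encodes a Groucho-type co-repressor that is recruited by TCF and other DNA-binding factors. Ddit4, also called REDD1, encodes a stress-induced inhibitor of the growth kinase complex mTORC1. Aff1, also called AF4, encodes a scaffold of the super elongation complex, which releases paused RNA polymerase II. Akap12, also called Gravin or SSeCKS, encodes a scaffold that anchors protein kinase A and protein kinase C near the plasma membrane.

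For Tle3, Ddit4 and Aff1, the mESC enhancer closest to the TSS that an EpiLC enhancer also overlaps is shown first, as its central 300 bp, because these enhancers are common to both sets. The central 300 bp of the mESC enhancers at Aff1 and Akap12 that no EpiLC enhancer touches follow, and then the promoters of the genes with a RefSeq entry, since an EpiLC enhancer covers each of them. Sequences are GRCm38.p6 (mm10), from the genome or the RefSeq promoter table, 5′ to 3′. The promoters stop before the first annotated start in the RefSeq promoter entry's own window, which for Aff1 is the start in the authors' table and not the earlier one further upstream. Capitals mark matches to any of 15 transcription factor words searched on both strands, which are spelled out with the results on sequence.
Tle3 shared enhancer, chr9:61361354-61361653, plus strand: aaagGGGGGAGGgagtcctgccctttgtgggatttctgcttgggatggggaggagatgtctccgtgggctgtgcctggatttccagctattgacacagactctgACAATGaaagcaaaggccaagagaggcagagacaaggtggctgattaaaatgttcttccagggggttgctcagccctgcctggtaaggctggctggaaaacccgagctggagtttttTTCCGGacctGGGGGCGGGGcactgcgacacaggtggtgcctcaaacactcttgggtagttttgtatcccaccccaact
Ddit4 shared enhancer, chr10:59966054-59966353, plus strand: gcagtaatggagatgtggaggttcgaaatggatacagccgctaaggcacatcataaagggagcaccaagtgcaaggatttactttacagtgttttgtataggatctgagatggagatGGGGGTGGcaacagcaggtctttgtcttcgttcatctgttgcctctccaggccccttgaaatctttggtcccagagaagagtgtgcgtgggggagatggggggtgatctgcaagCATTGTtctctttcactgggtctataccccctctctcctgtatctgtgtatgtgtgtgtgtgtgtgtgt
Aff1 shared enhancer, chr5:103729934-103730233, plus strand: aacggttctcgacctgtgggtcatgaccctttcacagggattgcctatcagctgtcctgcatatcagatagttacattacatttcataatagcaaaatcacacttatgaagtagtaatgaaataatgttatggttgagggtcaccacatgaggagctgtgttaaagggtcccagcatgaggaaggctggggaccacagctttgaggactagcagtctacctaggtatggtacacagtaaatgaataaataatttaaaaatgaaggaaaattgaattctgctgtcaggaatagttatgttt
Aff1 mESC-only enhancer, chr5:103898312-103898611, plus strand: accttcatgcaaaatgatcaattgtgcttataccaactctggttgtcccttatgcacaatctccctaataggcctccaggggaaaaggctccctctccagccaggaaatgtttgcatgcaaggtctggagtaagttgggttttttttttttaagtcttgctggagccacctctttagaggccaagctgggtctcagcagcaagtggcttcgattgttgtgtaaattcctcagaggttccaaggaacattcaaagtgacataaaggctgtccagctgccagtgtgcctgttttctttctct
Akap12 mESC-only enhancer, chr10:4304721-4305020, plus strand: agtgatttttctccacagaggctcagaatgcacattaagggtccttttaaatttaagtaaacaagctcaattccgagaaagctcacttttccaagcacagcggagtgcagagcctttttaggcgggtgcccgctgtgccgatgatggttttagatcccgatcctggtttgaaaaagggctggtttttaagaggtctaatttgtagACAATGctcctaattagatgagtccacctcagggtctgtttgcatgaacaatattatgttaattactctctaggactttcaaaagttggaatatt
Tle3 promoter, chr9:61372116-61372325, plus strand: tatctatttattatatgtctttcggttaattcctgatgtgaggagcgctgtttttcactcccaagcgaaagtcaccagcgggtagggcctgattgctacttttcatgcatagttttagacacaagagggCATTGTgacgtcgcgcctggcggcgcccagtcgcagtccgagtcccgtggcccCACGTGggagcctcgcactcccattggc
Ddit4 promoter, chr10:59951835-59952020, minus strand: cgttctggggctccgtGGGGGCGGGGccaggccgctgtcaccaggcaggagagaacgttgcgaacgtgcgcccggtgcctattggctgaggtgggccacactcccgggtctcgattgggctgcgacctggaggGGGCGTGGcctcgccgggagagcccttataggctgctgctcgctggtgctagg
Aff1 promoter, chr5:103753912-103754161, plus strand: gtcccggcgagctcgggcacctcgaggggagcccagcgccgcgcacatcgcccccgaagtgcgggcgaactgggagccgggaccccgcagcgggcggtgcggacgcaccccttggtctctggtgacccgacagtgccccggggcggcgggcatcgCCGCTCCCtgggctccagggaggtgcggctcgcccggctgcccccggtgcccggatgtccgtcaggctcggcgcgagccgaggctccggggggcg

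The Tle3 stretch, from an enhancer 10.5 kb upstream of the gene, held 3 matches to the KLF word, 1 to the SOX word and 1 to the ETS word. The Ddit4 stretch, from inside a 17172 bp enhancer, held 1 KLF and 1 SOX match. In the Aff1 stretch, from the enhancer shared with the EpiLC set, 0 of the 15 words matched, and 63.0% of its bases were marked as repeats in the genome file. Its bases after position 103730101 lay in a gap between EpiLC regions, so only part of this stretch is in both sets. The mESC-only stretch at Aff1 had 0 matches and that at Akap12 1 SOX match. The Tle3 promoter contained 14 CpG dinucleotides in 210 bases with a SOX and an E-box match, the Ddit4 promoter 16 in 186 bases with 3 KLF matches, and the Aff1 promoter 35 in 250 bases with 1 KLF match. Aff1 had the most GC-rich of these promoters, at 78.8%, against 69.9% at Ddit4 and 53.8% at Tle3. In the whole 250 bases before the start, 45.9% of all 32851 RefSeq promoters held the KLF word, 10.7% the SOX word and 6.02% the E-box word.

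The co-repressor gene Tle3 lies on the plus strand of chromosome 9 (61372366 to 61418497) and had 4 mESC and 15 EpiLC enhancers in its window. The EpiLC count ranked 13 among the 24198 genes and the mESC count 393. Of the other genes in the authors' table only the noncoding B930092H01Rik, 78.6 kb upstream, reached into the window, and 11 of the 15 EpiLC enhancers had the TSS of Tle3 as their nearest. Regions lay on both sides, with 9 EpiLC enhancers upstream of the TSS, 1 over it, 2 inside the gene and 3 beyond it.

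The Tle3 regions were short. EpiLC widths ran from 375 to 2175 bp with a median of 800 bp, against 1750 bp for all EpiLC enhancers. Upstream, 5 EpiLC regions and the gaps between them spanned 11.8 kb that end over the TSS (61360777 to 61372601). Within that stretch regions of 650, 1100 and 400 bp were separated by gaps of only 125 and 150 bp. The promoter region, 800 bp wide (61371802 to 61372601), lay 10.0 kb from the nearest mESC enhancer. It is centred 8 bp from the start of Gm10655, a noncoding gene transcribed away from Tle3.

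An EpiLC enhancer lay over each of the 4 mESC enhancers of Tle3. The one 10.5 kb upstream (61361159 to 61361847, 689 bp) lay wholly inside an EpiLC region of 1200 bp. The one in an intron 13.7 kb downstream of the TSS (61386091 to 61387007, 917 bp) touched a pair of small EpiLC regions of 400 and 375 bp, 200 bp apart, which shared 63.9% of its length. One at the TSS of B930092H01Rik (61293089 to 61294194, 1106 bp) was wholly covered. The last, 96.0 kb downstream of the TSS (61468340 to 61471714, 3375 bp), was the widest and shared 41.1% of its length. The other 10 EpiLC enhancers of Tle3 had no mESC counterpart, at distances of 3.5 to 37.4 kb from the nearest one.

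**Figure D1:**
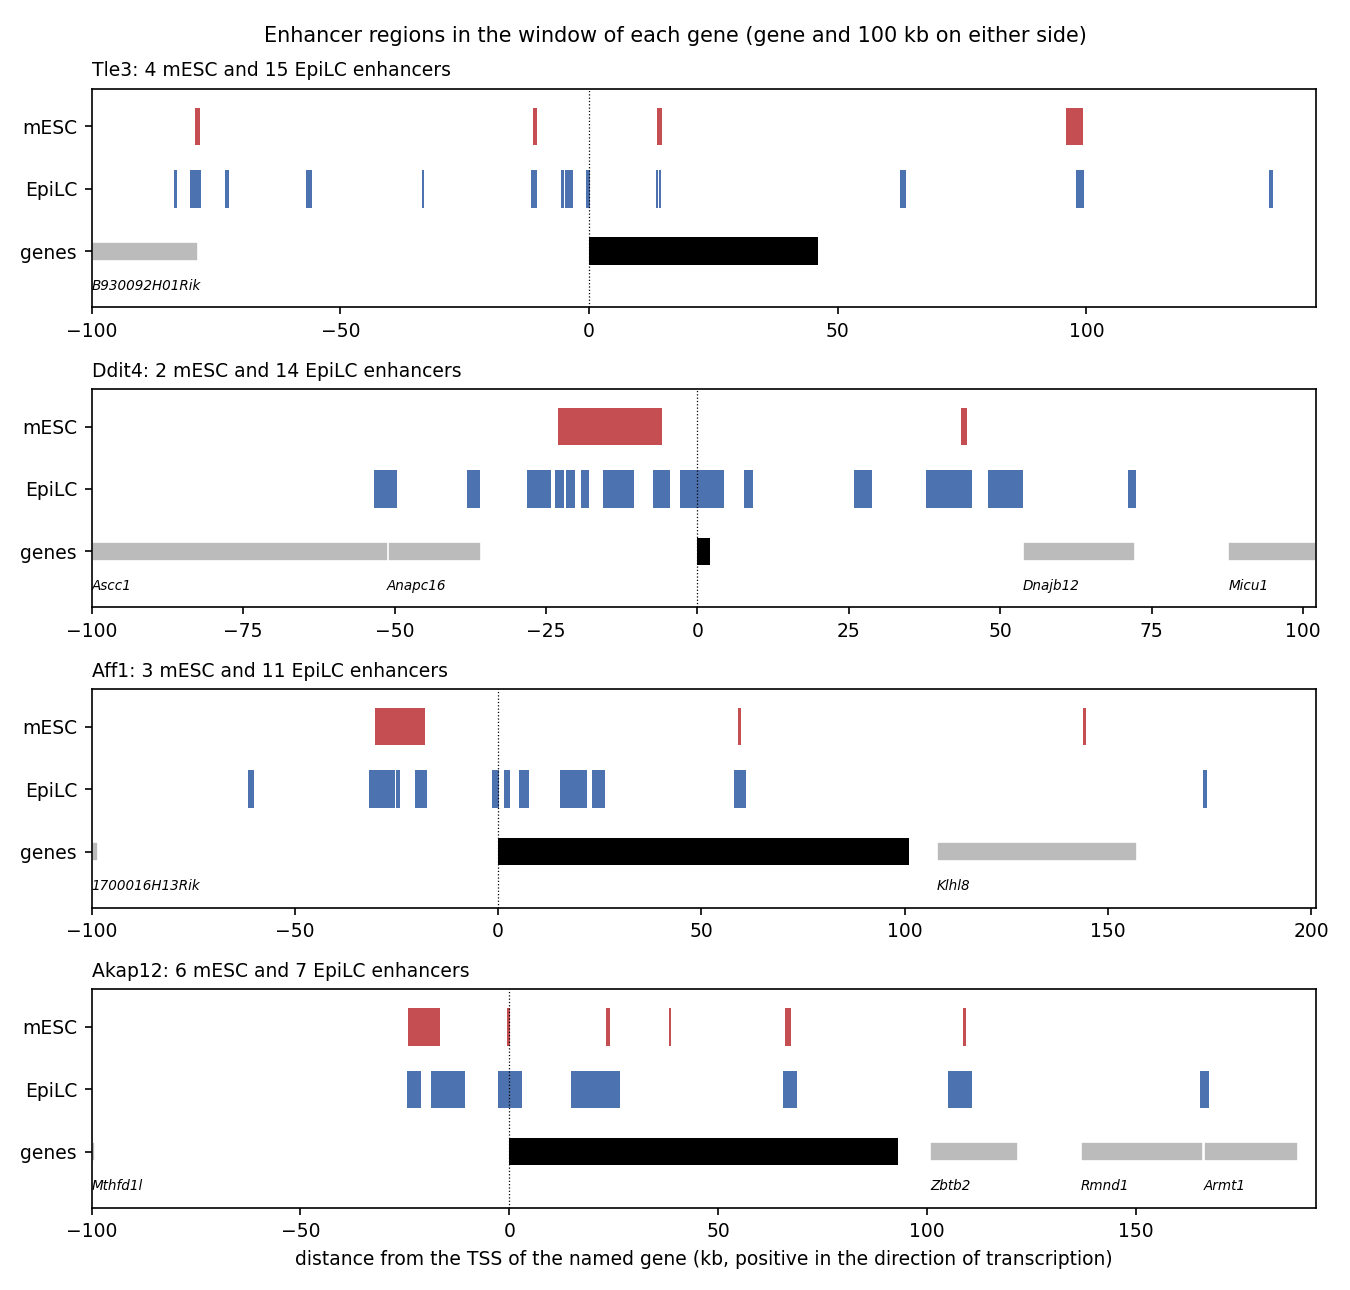
Each panel shows 1 gene with its window, and the x axis is distance from its TSS in kb, positive in the direction of transcription. Red bars are mESC enhancers, blue bars EpiLC enhancers, the black bar the named gene and grey bars the other genes of the authors' table. EpiLC regions are small and scattered at Tle3 and lie close together around Ddit4, and each of the 4 TSSs of the authors' table is covered by an EpiLC enhancer.

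Ddit4, a gene of 2096 bp on the minus strand of chromosome 10 (59949675 to 59951770), had 2 mESC and 14 EpiLC enhancers in its window of 202.1 kb. The EpiLC count ranked 27 of 24198 and the density, 6.93 per 100 kb, was the highest of the 4 genes (6.09 at Tle3, 3.65 at Aff1 and 2.39 at Akap12). A single EpiLC enhancer of 7325 bp (59947327 to 59954651) covered the whole gene and both of its flanks. Regions were also joined across gaps up to the length often used to stitch super-enhancers, which in these windows joined gaps of 11.8 kb or less and kept gaps of 13.3 kb or more. With that, 10 of the 14 formed a block of 62.6 kb around the gene (59942527 to 60005101), 49.3% of it covered by enhancers. Another 3 formed a block of 27.9 kb downstream of the gene, towards Dnajb12, which encodes a membrane-bound chaperone.

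The larger mESC enhancer of Ddit4 began 5.8 kb upstream of the TSS (59957618 to 59974789) and ran for 17172 bp, rank 82 in width among 8794. It is one of the first 231 entries of the mESC table. Those entries run once through the chromosomes before the table starts again and have a median width of 8667 bp, against 703 bp for the rest. The file does not label them, although the publication behind the set is known for separating super-enhancers from typical enhancers. In EpiLCs this stretch was called as 5 regions of 2875, 5200, 1250, 1375 and 1450 bp, separated by gaps of 3000, 2300, 1100 and 350 bp. They shared 60.7% of the mESC region. With the joining described above, all 5 are part of the block of 62.6 kb. The split into 5 cannot be told apart from a difference in how the sets were defined. That joining left the mESC counts of the genes described here unchanged, and whether mESC regions already bridge such gaps was not tested. The smaller mESC enhancer, 1022 bp wide and 43.5 kb downstream of the TSS (59907233 to 59908254), lay inside an EpiLC region of 7600 bp, and its nearest TSS was that of Dnajb12.

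Neighbours shared the Ddit4 window. Of its 14 EpiLC enhancers, 8 were nearest to Ddit4, 3 to Dnajb12, 2 to Ascc1, which encodes a subunit of a transcriptional coactivator complex, and 1 to Anapc16, which encodes a subunit of the anaphase-promoting complex. A region of 1300 bp covered the TSS of Dnajb12, and one of 3700 bp the TSSs of both Anapc16 and Ascc1.

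Aff1 lies on the plus strand of chromosome 5, and its interval in the authors' table (103754162 to 103855322) had 3 mESC and 11 EpiLC enhancers in the window. The EpiLC count ranked 157 and the mESC count 1118 of 24198. Counting from the TSS, an EpiLC enhancer of 1875 bp (103752577 to 103754451) covered it, and 4 more began inside the gene at 1.4, 5.2, 15.2 and 23.0 kb, with widths of 1450, 2375, 6525 and 3350 bp. These 5 regions spanned 27.9 kb together, and 0 of the 5 overlapped an mESC enhancer, which 25.9% of all EpiLC enhancers did. The nearest mESC region to any of them was 16.3 kb away.

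Upstream of Aff1, the mESC table has a region of 12369 bp (103723899 to 103736267), rank 243 in width, which ended 17.9 kb before the TSS. It stood outside the first 231 entries. EpiLC regions of 6400, 1175 and 3100 bp shared 69.5% of it. The limit given for the split of the larger mESC enhancer of Ddit4 holds here too. Both RefSeq and GENCODE M21 carry a longer Aff1 than the authors' table. In RefSeq it starts at 103692362, 61.8 kb further upstream. By that annotation the 12369 bp region is intronic, and 10 of 11 EpiLC enhancers touch the gene rather than 6. The most upstream EpiLC enhancer, 1525 bp wide (103692602 to 103694126), begins 240 bp after that earlier start and has the TSS of 1700016H13Rik as its nearest in the authors' table. It thus lies beside an Aff1 start that the authors' gene interval leaves out. The count by nearest TSS for which Aff1 was chosen rests on the later start and was not repeated from the earlier one.

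The remaining mESC regions of Aff1 were small. One of 764 bp in an intron, 59.0 kb from the TSS (103813112 to 103813875), lay inside an EpiLC region of 3075 bp. One of 763 bp (103898080 to 103898842), inside Klhl8, which encodes a kelch-like protein, lay 28.8 kb from the nearest EpiLC enhancer and was centred 418 bp from Gm24897, a small nuclear RNA gene. Beyond the intronic EpiLC region, the next one stood 112.4 kb further on, the longest gap between neighbouring EpiLC regions at the 4 genes.

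Akap12, on the plus strand of chromosome 10 (4266329 to 4359471), had 6 mESC enhancers, rank 48 of 24198, and 7 EpiLC enhancers, rank 1324. The mESC regions were spread over the locus with gaps of 14063 to 41206 bp, and the joining left all 6 apart. It also joined no mESC regions at Tle3, Ddit4 or Aff1. The shares of all genes with at least 2, 3, 4 and 6 mESC enhancers were 29.2%, 12.4%, 4.62% and 0.475%, both before and after it. Joining thus changed none of these shares over all genes, and that the regions stayed apart says nothing about Akap12. Whether mESC regions had been joined in a like way beforehand was not tested. Joining did lower the EpiLC count at each gene, so a region may not be the same unit in both sets. The region furthest upstream ended 16.7 kb before the TSS (4242026 to 4249675) and was 7650 bp wide. A region of 733 bp covered the TSS. Regions of 1073, 588 and 1563 bp followed inside the gene, 23.1, 38.2 and 66.0 kb from the TSS, and one of 550 bp lay in an intron of Zbtb2, which encodes a zinc finger repressor, 108.8 kb away.

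EpiLC regions at Akap12 were wide, and fewer than at Tle3, Ddit4 or Aff1. Their median width was 5675 bp, and the widest, 11775 bp in an intron (4281177 to 4292951), ranked 134 of 16576. It contained the 1073 bp mESC enhancer, which made up 9.11% of it. The EpiLC region over the TSS was 5675 bp wide and contained the 733 bp mESC region, 12.9% of its length. At Akap12 5 of 6 mESC regions were shared with the EpiLC set. The exception was the 588 bp intronic region (4304577 to 4305164), whose nearest EpiLC region was 11.6 kb away. In the other direction 6 of 7 EpiLC regions were shared. The exception, of 2100 bp, covered the starts of Rmnd1 and Armt1, 165.4 kb from the TSS of Akap12.

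Set side by side, the 4 genes reached their places in different ways. Tle3 and Ddit4 had nearly the same number of EpiLC enhancers, 15 and 14, yet these covered 13.8 kb at Tle3 and 48.5 kb at Ddit4. By covered EpiLC length Tle3 ranked 3857 of 24198, Aff1 549 with 31.8 kb, Akap12 261 with 40.1 kb and Ddit4 119. Akap12, with the fewest EpiLC regions, was thus second of the 4 in covered length. There were 14 genes with 15 EpiLC enhancers, whose covered length ran from 13.8 to 109 kb with a median of 39.8 kb, with Tle3 the lowest. Ddit4 was near the middle of the 17 genes with 14 EpiLC enhancers (median 42.2 kb), with 9 lower and 7 higher. Aff1 was near the middle of the 101 genes with 11 (median 29.6 kb). Akap12 was above 835 of the 875 genes with 7 (median 18.4 kb). Neighbouring genes share enhancers, so such genes are not independent.

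In the mESC set the order of the 4 genes also turned with the measure. Akap12 had most regions (6), then Tle3 (4), Aff1 (3) and Ddit4 (2). By covered length Ddit4 came first with 18.2 kb, then Aff1 with 13.9 kb, Akap12 with 12.2 kb and Tle3 with 6.09 kb. At each of the 4 genes the widest region made up most of that length. The median gene had 1 mESC and 2 EpiLC enhancers in its window. At least 2 mESC enhancers, the lowest count of the 4, were found at 29.2% of genes, and at least 7 EpiLC enhancers at 9.08%. As the genes were chosen by such counts, these shares are only a description.

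**Figure D2:**
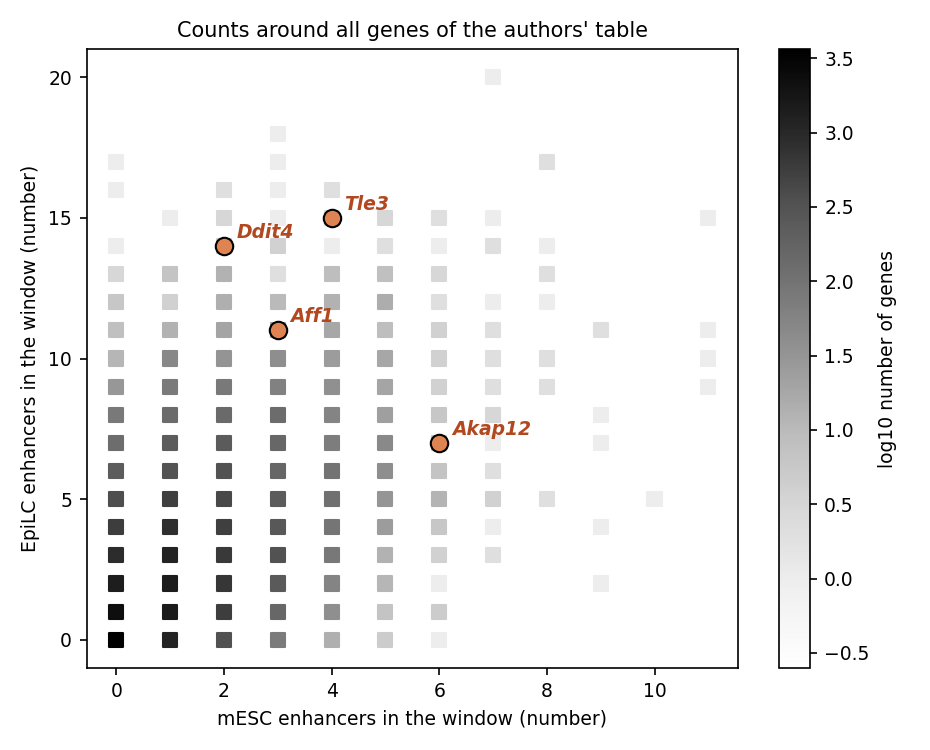
Number of mESC (x axis) and EpiLC (y axis) enhancers in the window of each of 24198 genes. The grey level gives the log10 number of genes with that pair of counts and orange points are the 4 genes. Tle3 (4 and 15) and Ddit4 (2 and 14) lie near the upper edge, Akap12 (6 and 7) towards the right, and Aff1 (3 and 11) between them.

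**Figure D3:**
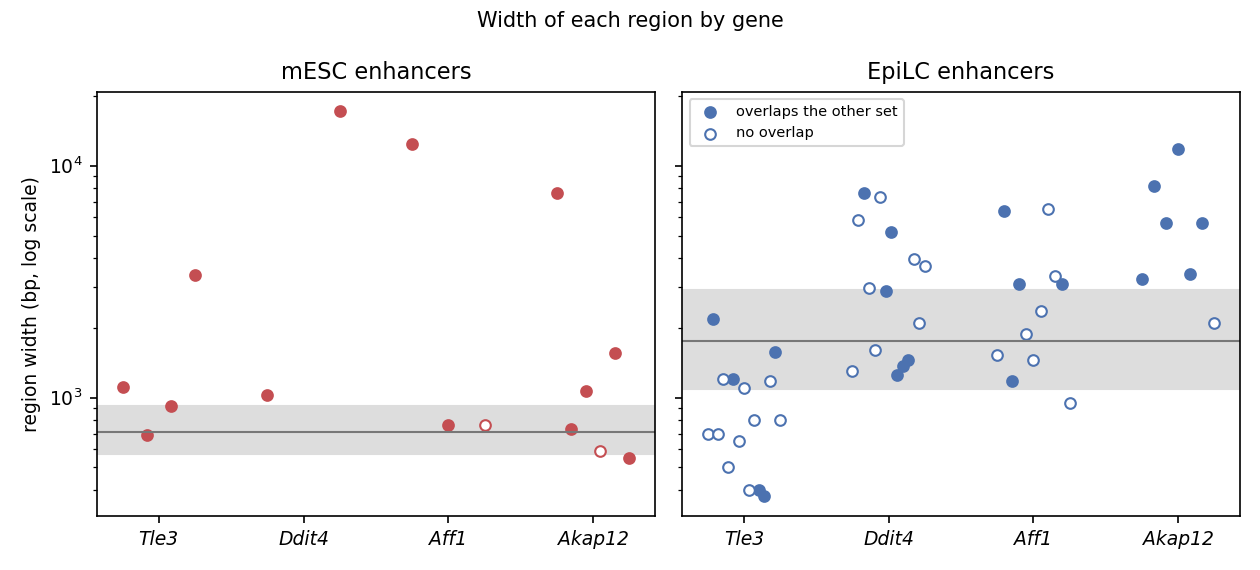
Width of every region in the 4 windows in bp on a log scale, in genomic order within each gene, for mESC (left) and EpiLC enhancers (right). Filled points overlap the other set and open points do not. The grey band and line are the quartiles and the median of the whole set. All but 1 of the Tle3 EpiLC regions are below the whole-set median of 1750 bp, and all 7 at Akap12 are above it.

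In all, 13 of the 15 mESC regions at these genes were also in the EpiLC set, by at least 1 bp, against 42.9% over the whole mESC table. Of the 47 EpiLC regions 21 were also in the mESC set, against 25.9% over the whole table. The genes were picked for having many regions, and the part of that choice in the overlap was not tested, so nothing is read from it. By gene, 4 of 4 mESC enhancers were shared at Tle3, 2 of 2 at Ddit4, 2 of 3 at Aff1 and 5 of 6 at Akap12. For EpiLC enhancers the counts were 5 of 15, 6 of 14, 4 of 11 and 6 of 7. Shared bases made up 61.9% of the mESC length at Tle3, 62.9% at Ddit4, 67.3% at Aff1 and 74.8% at Akap12, against 34.7% over the whole mESC table. They made up 27.4%, 23.6%, 29.4% and 22.7% of the EpiLC length, against 13.8% over the whole EpiLC table. In all, 100 of 134 kb of EpiLC-covered bases were outside the mESC regions, a smaller part than over the whole table. Akap12, where 6 of 7 EpiLC regions were shared, had the lowest share of EpiLC bases in common. Its shared EpiLC regions were wide and most of the mESC regions in them narrow.

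**Figure D4:**
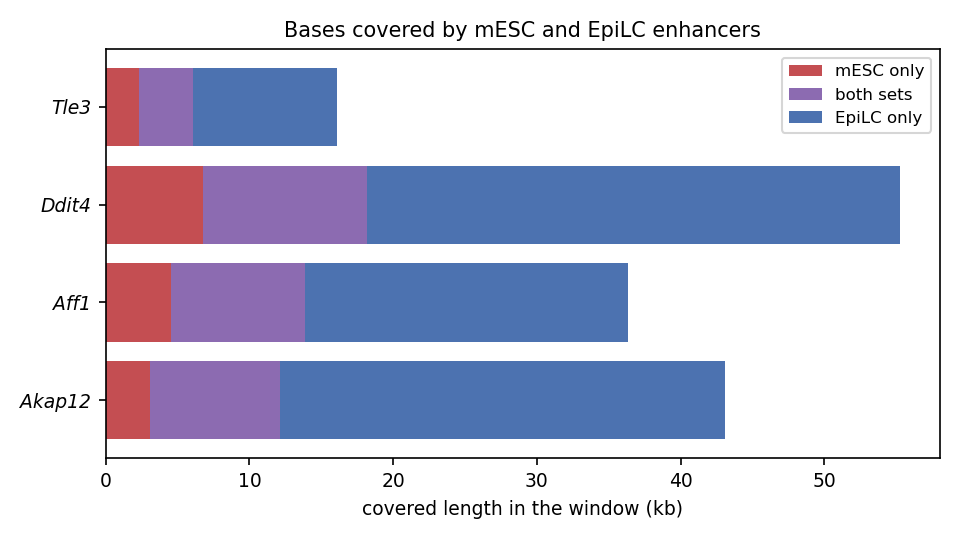
Length in kb covered by enhancers in each window, split into bases covered by mESC enhancers only (red), both sets (purple) and EpiLC enhancers only (blue). EpiLC-only bases are the largest part at each gene, from 9.98 kb at Tle3 to 37.1 kb at Ddit4.

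By the starts in the authors' table, an EpiLC enhancer covered the TSS at 4 of 4 genes, against 14.1% of all genes. An mESC enhancer covered it at 1 of 4, Akap12, against 1.17%. Nothing is read from these shares either, for the same reason. The earlier RefSeq start of Aff1 was not covered, and its nearest EpiLC region was 240 bp away. Centres within 1 kb of a GENCODE TSS were found for 11 of 47 EpiLC enhancers (25.7% in the whole set) and 3 of 15 mESC enhancers (8.92% in the whole set). Introns held 13 EpiLC and 7 mESC centres, against 34.5% and 45.5% over the whole sets, and 22 and 5 were intergenic, against 36.9% and 42.4%. The last EpiLC region was centred in a coding exon of Anapc16. Within 10 kb of the TSS of the 4 genes were 11 of the 47 EpiLC and 1 of the 15 mESC centres. Between 10 and 25 kb there were 14 and 6. The same distances were not counted over all genes, so nothing is read from these counts.

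The EpiLC regions over the 4 TSSs had more CpG than the median of their set. The ratio of observed to expected CpG was 0.85 at Tle3, 0.38 at Ddit4, 0.75 at Aff1 and 0.41 at Akap12. The median over all EpiLC enhancers was 0.244, but only 25.7% of those were centred within 1 kb of a TSS. Regions over the TSSs of other genes were not compared, so the part of position in these ratios was not tested. The region at the upstream Aff1 start had 0.61. The mESC-only regions of Akap12 (588 bp) and Aff1 (763 bp) had 0.44 and 0.12, against a median of 0.188 over all mESC enhancers. Median GC content was 49.2% for the 47 EpiLC regions (47.7% for all) and 48.9% for the 15 mESC regions (45% for all).

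For sequence, 15 exact words of transcription factors that act in pluripotent cells, in signalling or in stress responses were searched in the central 300 bp of every region, on both strands. The word of KLF factors, CCNCNCCC, was found in 25 of 47 EpiLC regions (53.2%), against 35.9% of all EpiLC enhancers. It was found in 9 of 15 mESC regions (60.0%), against 34.6% of all. By gene, 10 of 14 EpiLC regions at Ddit4 held it, 7 of 11 at Aff1, 6 of 15 at Tle3 and 2 of 7 at Akap12. The word is rich in C, and the regions had a higher GC content than their sets, as given above. The part of GC content in these shares was not tested.

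Words of the core pluripotency factors were rarer. SOX, CATTGT, was found in 5 mESC regions (27.6% of all mESC enhancers) and 8 EpiLC regions (14.5% of all). The octamer of POU factors, ATGCAAAT, was found in 1 mESC region, at the B930092H01Rik start in the Tle3 window (8.78% of all), and in 2 EpiLC regions (3.37% of all). The joint POU-SOX word, which joins parts of both, was found in 0 of 15 and 0 of 47, against 0.864% of all mESC and 0.187% of all EpiLC enhancers. The ESRRB word, CAAGGTCA, was in 1 mESC region, the 764 bp intronic enhancer of Aff1 (5.90% of all), and in 2 EpiLC regions (2.79% of all).

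Words of signalling effectors and of factors of the epiblast gave small counts. OTX and GSC, TAATCC, had 2 mESC regions (13.2% of all) and 8 EpiLC regions (12.0% of all). FOXH1, a Nodal effector, AATCCACA, had 2 mESC regions (1.64% of all), at Tle3 and Akap12, and 1 EpiLC region (1.63% of all). AATCC is common to the OTX and FOXH1 words, as ATGCAA is to the octamer and the C/EBP-ATF word. TCF and LEF, CTTTGAT, had 1 mESC region (6.64% of all) and 0 EpiLC regions (4.27% of all). TEAD, CATTCC, had 3 (19.1% of all) and 9 (17.2% of all). STAT, TTCCNGGAA, had 0 (1.01% of all) and 2, both at Tle3 (1.08% of all).

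For the other words, AP-1, TGANTCA, had 0 mESC regions (10.8% of all) and 3 EpiLC regions (9.06% of all). ETS, CCGGAA, had 1 (3.81% of all) and 1 (11.4% of all). The E-box CACGTG had 0 (3.00% of all) and 1, the Tle3 promoter region (4.75% of all). The C/EBP-ATF word TGATGCAA, of the amino acid and stress response, had 0 (1.98% of all) and 1, the Aff1 promoter region (0.995% of all). The glucocorticoid receptor word ACANNNTGT had 0 (8.78% of all) and 2 (8.20% of all), 1 of them in a Ddit4 region. A match is a run of letters and not a site of binding.

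**Figure D5:**
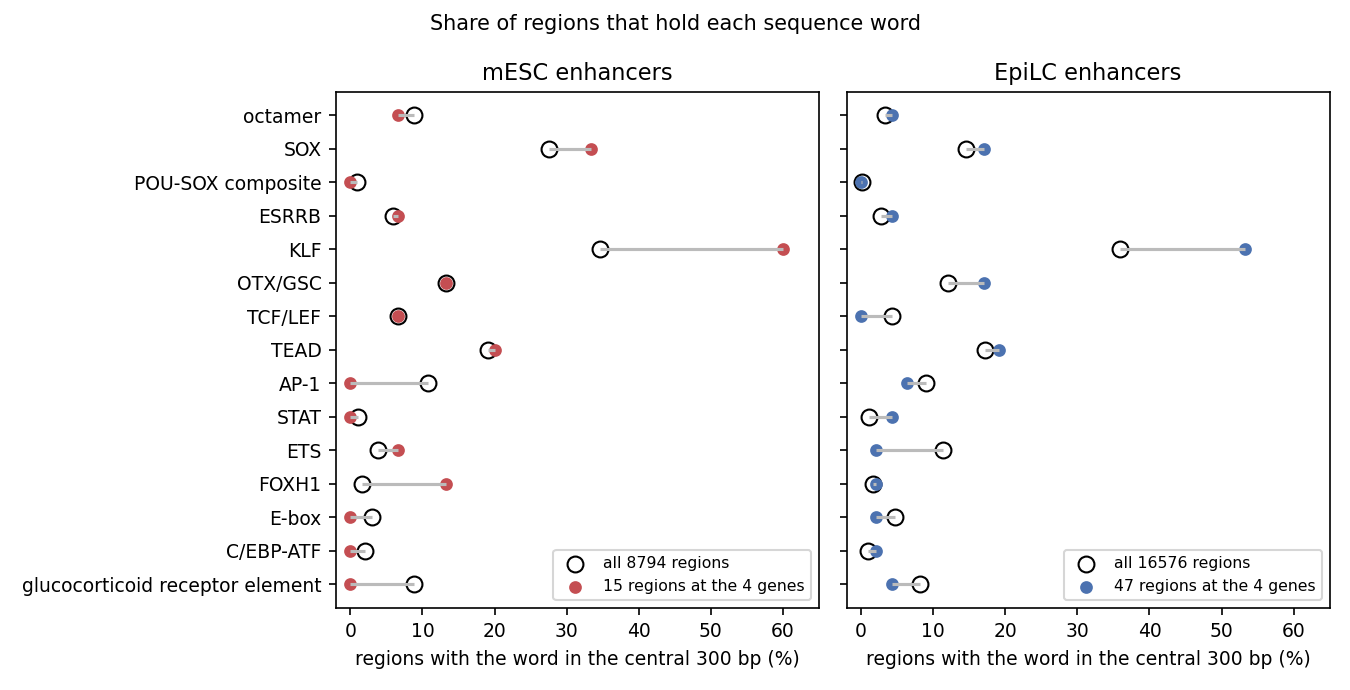
Share of regions, in percent, that hold each of 15 words in their central 300 bp, for mESC (left) and EpiLC enhancers (right). Filled points are the regions at the 4 genes and open points the whole set. KLF has the highest share at the 4 genes, 60.0% of mESC and 53.2% of EpiLC regions.

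Relatives of the 4 genes were counted in the same windows. As the 4 were chosen for high counts, their places among relatives are only a description. Among 6 genes of the TLE family Tle3 had most of both, with 15 EpiLC and 4 mESC enhancers. Tle4, a second Groucho co-repressor gene, followed with 6 and 3, but these covered 23.9 and 26.9 kb, more than at Tle3. Tle2 and Tle5 lie close together on chromosome 10, share most of their windows and had 4 EpiLC and 0 mESC enhancers each. The family median was 4 EpiLC and 1 mESC. In 14 genes of the AFF family and the super elongation complex Aff1 had most EpiLC enhancers (11), followed by the elongation factor genes Ell (9) and Ell2 (8). Their median was 4. Aff4, the paralog at the core of the same complex, had 4 mESC enhancers against 3 at Aff1.

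Among 18 A-kinase anchoring genes Akap12 had most mESC enhancers (6, against a median of 1) and was second in EpiLC enhancers (7), after Akap1, which encodes the anchor at the outer mitochondrial membrane, with 9. Akap12 covered more EpiLC length than Akap1, 40.1 against 23.2 kb. In 19 genes around Ddit4 and mTORC1, Ddit4 had most EpiLC enhancers (14, against a median of 4). Sesn2, another stress-induced inhibitor of mTORC1, followed with 10. In mESC enhancers Ddit4, with 2 against a median of 1, was below Deptor, an mTOR inhibitor gene, and Rptor, which encodes the Raptor subunit of mTORC1, with 4 each. An EpiLC enhancer covered the TSS of 2 of the 6 TLE genes, 4 of the 14 AFF and elongation genes, 4 of the 18 anchoring genes and 11 of the 19 around Ddit4, against the 14.1% of all genes. An mESC enhancer covered 1 TSS in these lists, that of Akap12, against 1.17% of all genes. The lists hold the chosen genes themselves, so nothing is read from these shares.

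The genes most alike in their pair of counts, by the sum of absolute differences and then by gene length, were set beside the 4 genes in covered length. Their likeness in number follows from how they were picked, so only the lengths are described. Intervals without a gene symbol and genes whose window overlaps that of one of the 4 were left out of this comparison. For Tle3 that removed the 1 other interval with its pair, which has no symbol, and the nearest named genes, each at a difference of 1, were Top2a, Ahdc1 and Fgd2. Their EpiLC enhancers covered 39.7, 51.9 and 41.6 kb, against 13.8 kb at Tle3. Ddit4 shared its pair of 2 and 14 with 4 genes, 1 of them with an overlapping window. The other 3 were Tbxa2r, Mrps23 and Nucb1, covering 30.4, 38.5 and 65.9 kb against 48.5 kb. Aff1 shared its pair of 3 and 11 with 23 intervals, 1 of them without a symbol, among which Dennd2a, Map1b and Sort1 were nearest in length. Their EpiLC enhancers covered 66.4, 32.4 and 21.9 kb against 31.8 kb at Aff1. Akap12 shared 6 and 7 with 5 genes, the nearest being Adam19, Xrcc5 and Arhgef3, where EpiLC enhancers covered 19.2, 29.2 and 47.1 kb against 40.1 kb.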

How the data were processed

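The values are mm10 coordinates in 3 deposited tables, per the file headers: mESC enhancers, EpiLC enhancers and gene intervals. Per the series' design text, the authors took the enhancers from earlier publications of other groups and lifted them over to mm10, and the genes from a non-redundant UCSC set. Trimmomatic 0.38, bedtools 2.29.2 and Bowtie2 2.3.4.1 were used for the series, per the submitters' processing notes, in roles not stated. The liftover tool is not given in the sources used here. Starts count from 0 in the gene table (start plus 1 and end equal a RefSeq gene in 12038 rows, the start itself in 329). The same was assumed for enhancers, whose starts are thus uncertain by 1 bp.

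Genes were named by exact match to RefSeq or GENCODE M21, or where the overlap made up 0.8 or more of both intervals' union. Duplicates (120 rows), rows off the chromosomes (19) and intervals longer than any RefSeq gene (3171119 bp, 65 rows) were left out, which kept 24198. A region counted if it touched the window by 1 bp, and overlap between sets from 1 bp. Positions were taken from GENCODE M21, and sequence from GRCm38.p6 with pysam 0.24.0 (Python 3.11.15). The RefSeq promoter table matched 3 of the 4 genes (not Akap12). The sequence of 1 shared enhancer is not reported here. EpiLC widths were multiples of 25 bp in 46 of the 47 regions (96.7% of all), so edges there are no finer than that. The functions were tested on simulated regions. The genes named are the 4 members, all genes of the table in their windows, the 3 with the nearest pair of counts, and up to 4 relatives per list with most enhancers in either set. Of the TLE list 6 of 8 names were found (Aes is another name of Tle5, and Tle7 was not analysed here). Pim1, Jarid2 and Prdm1 were named after their counts were seen. Members and lists were chosen with earlier results of these data known, and so were the mESC-only sequences and the comparison at equal counts, both added after the regions had been seen. Alternatives were other windows, joined regions, another gene annotation, stricter overlap and longer stretches for the words. No test was run, since the tables hold no replicates.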

Additional observations from a re-analysis of the deposited data

How the results depend on the processing

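No paired analysis was possible because the tables hold regions and no value per library. Counts of regions kept within 1.5 times of their value when only centres inside the window counted, when gaps up to 1 kb were joined, with the RefSeq gene intervals and, a setting chosen after seeing the data, within 100 kb of the TSS. With a window of 50 kb the EpiLC count of Tle3 was 9. With 200 kb the mESC count of Tle3 was 8 and the EpiLC count of Akap12 11. The wider joining left 8 EpiLC regions at Tle3, 3 at Ddit4, 5 at Aff1 and 4 at Akap12, so that 33.4% of genes had at least as many as Ddit4 and 0.207% at least as many as Tle3. With at least 50% of both regions shared, 2 mESC and 2 EpiLC enhancers at Tle3 still overlapped the other set, and 0 and 0 at Ddit4, Aff1 and Akap12, since narrow mESC regions sit in wide EpiLC regions or the reverse. With regions of equal width of 500 bp the overlaps were 3 and 4 at Tle3, 0 and 0 at Ddit4, 1 and 1 at Aff1 and 2 and 2 at Akap12. For the words, 20 of 30 counts stayed within 1.5 times in the central 500 bp and 3 of 30 in whole regions, where longer regions hold more matches. KLF was then in 42 of 47 EpiLC regions, against 77.5% of all, and in 13 of 15 mESC regions, against 61.6%. Depth behind the regions is unknown.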

Other observations

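Promoter regions in these windows included 3 pairs of genes that start in opposite directions under 1 EpiLC enhancer, by GENCODE M21. Tle3 and the noncoding gene Gm10655 start 173 bp apart within a region of 800 bp. Anapc16 and Ascc1, in the Ddit4 window, start 330 bp apart within 3700 bp, with the first stretches of the genes overlapping. Rmnd1, which encodes a mitochondrial protein, and Armt1, in the Akap12 window, start 79 bp apart within 2100 bp. The observed to expected CpG ratio was 0.85, 0.59 and 0.76, and 0 of the 3 regions overlapped an mESC enhancer, against 25.9% of all EpiLC enhancers that did. Only 25.7% of all EpiLC enhancers were centred within 1 kb of a TSS, and the overlap of those alone is not given here. With 3 regions nothing is read from this.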
